A study of Homo sapiens with 22 samples.

Results

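This account follows 39 genes that copy DNA, out of the 28063 genes counted in each library, through 3 human acute myeloid leukemia cell lines treated with an inhibitor of the SWI/SNF chromatin remodeller. The 39 were taken by gene symbol from the count tables, and all 39 had enough reads to be tested. They fall into 8 groups by role: origin recognition and licensing (ORC1, ORC6, CDC6, CDT1), the MCM helicase (MCM2, MCM3, MCM4, MCM5, MCM6, MCM7), helicase activation (MCM10, CDC45, GINS1, GINS2, GINS3, GINS4), polymerases and primase (POLA1, POLA2, PRIM1, POLD1, POLD2, POLD3, POLE, POLE2), the sliding clamp and its loader (PCNA, RFC2, RFC3, RFC4, RFC5), single-strand binding and Okazaki fragment joining (RPA2, FEN1, LIG1), nucleotide supply (RRM1, RRM2, TYMS, TK1) and the copying of chromatin (UHRF1, CHAF1A, CHAF1B). The lines were MOLM-13, MV-4-11 and THP-1, all labelled wild type. MOLM-13 and MV-4-11 carry a KMT2A fusion with an internal tandem duplication of FLT3, and THP-1 carries a KMT2A fusion and lacks functional p53, as general background on these lines. Each line was given DMSO, the solvent, or 1 µM BRM014, which blocks the SWI/SNF ATPases SMARCA4 and SMARCA2, and RNA was taken after 24 h or 72 h. The labels give 1 DMSO group per line and not which of these times it was kept for, so each BRM014 time was set against the same DMSO libraries. THP-1 was also given 10 nM PMA, a phorbol ester that activates protein kinase C, for 48 h with 24 h of rest after its removal, or 3 µM DB2313, an inhibitor of the myeloid transcription factor PU.1, for 72 h. This makes 11 groups of 2 libraries. Nothing in the labels says whether the pairs came from separate cultures. A p-value here therefore reflects only the scatter between the 2 libraries of a group, pooled over the 11 groups, and that scatter may be technical.

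Replication starts in G1, when the origin recognition complex, CDC6 and CDT1 load the ring of MCM2 to MCM7 onto origins. In S phase CDC45 and the GINS complex join the ring to make the active helicase, primase with polymerase alpha starts each strand, and polymerases epsilon and delta extend the leading and lagging strands on the PCNA clamp. Many of these genes are transcribed by E2F factors, which the retinoblastoma proteins hold in check until cyclin-dependent kinases release them, and their mRNAs are therefore used as a readout of cells entering S phase. In bulk RNA, fewer cells of a type and less RNA per cell cannot be told apart, so a lower level below can stand for either.

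The libraries held 15893489 to 21565666 reads in genes, and reads outside annotated features made up 12.03% to 19.17% of the counted total. That share was 18.2% and 18.4% in MOLM-13 after 72 h of BRM014, against 13.2% and 12.4% with DMSO, and its part in the results was not tested. Levels are given as CPM, counts per 1000000 reads in genes. Duplicate libraries correlated at 0.994 to 0.998 (log2 CPM, across genes). The PMA pair stood furthest apart: chi-square divided by its degrees of freedom was 32.7 between the 2 libraries, against 3.23 to 11.4 in the other groups. Since the tests pool the spread over groups, the SE and p-values under PMA do not reflect its wider scatter in full. The counts under PMA, and the genes named for it where a value or call moved, are therefore given with and without each of its libraries. The DB2313 libraries carry later accessions than the rest, and the labels do not say whether they and the THP-1 controls were prepared at the same time, so a batch and the treatment cannot be told apart there. The 9 myeloid markers checked were present in every library (summed 788 to 11050 CPM, LYZ 60.7 to 8432 CPM), and the red cell marker HBA2 and the platelet marker PF4 had no read in any. The lymphoid list of 7 genes summed to 3.11 to 39.1 CPM, and the list of 7 epithelial and fibroblast genes to 0.239 to 153 CPM. The upper end of the latter came mostly from COL1A1 (at most 122 CPM) and also from the epithelial gene CDH1 (at most 35.65 CPM). The list of 8 red cell and megakaryocyte genes summed to 0.0607 to 152 CPM, with its upper end from ITGA2B, and 7 of its genes never passed 1 CPM. In THP-1 these lists differed between the groups: the red cell and megakaryocyte list stood at 1.25 and 1.04 CPM with DMSO and 140.3 and 152 CPM under DB2313, and the epithelial and fibroblast list at 0.501 and 0.841 CPM with DMSO, 151 and 153 CPM after 72 h of BRM014 and 24.8 and 29.8 CPM under DB2313. The myeloid list stood at 3253 and 3080 CPM with DMSO, 10910 and 11050 CPM under PMA and 1264 and 1251 CPM after 72 h of BRM014. LYZ alone reached 8432 CPM in a PMA library, most of the list's sum there. In MOLM-13 the myeloid list stood at 1256 and 1295 CPM with DMSO and 840 and 850 CPM after 24 h of BRM014. After 72 h it stood at 2113 and 2155 CPM. In MV-4-11 it stood at 1377 and 1367 CPM with DMSO, 831 and 788 CPM at 24 h and 1340 and 1308 CPM at 72 h. The epithelial and fibroblast list in MV-4-11 stood at 0.5 and 0.24 CPM with DMSO and 7.16 and 8.31 CPM at 72 h. The part of these lists in the results on any of the lines was not tested.

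The promoters of 34 of the 39 genes were in the RefSeq table (GRCh38.p14), as 300 bases from 250 before to 50 after the start. An exact E2F word (TTTGGCGC, TTTCCCGC, TTTCGCGC or TTTGCCGC, on either strand, overlaps allowed) was in 18 of these 34 (52.9%), against 3.33% of all 27305 promoters of that length and 4.005% of the 17680 whose genes were counted here. The CCAAT box was in 20 of 34 (58.8%) against 35.7% of all promoters, and the word TTTGAA, a cell cycle homology element of mitotic genes, in 1 of 34 (2.94%) against 15.4%. These are matches of letters and not sites of binding. They cover 1 window per gene, and words around other start sites were not searched. For several members the annotated gene start lies upstream of the window. Among them are RRM2 (start at 10120698 on chromosome 2), UHRF1 (4903080 on chromosome 19) and POLD2 (44124358 on chromosome 7). The promoters of 4 genes are shown for the 250 bases before the start, on the gene's strand from 5′ to 3′, with E2F words in capitals. MCM6 is shown because its 4 words overlap in pairs and it fell in all lines at 72 h. POLE and UHRF1 each hold 1 word and moved in opposite directions under DB2313, and RRM2, which rose in MV-4-11, holds none of these words but 3 CCAAT boxes.
MCM6 (chr2:135876444-135876693, minus strand): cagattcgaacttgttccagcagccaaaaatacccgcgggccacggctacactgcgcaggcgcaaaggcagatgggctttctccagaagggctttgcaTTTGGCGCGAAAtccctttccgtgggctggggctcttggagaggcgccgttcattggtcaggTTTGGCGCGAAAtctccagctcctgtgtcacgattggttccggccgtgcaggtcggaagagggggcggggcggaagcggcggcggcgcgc
POLE (chr12:132687343-132687592, minus strand): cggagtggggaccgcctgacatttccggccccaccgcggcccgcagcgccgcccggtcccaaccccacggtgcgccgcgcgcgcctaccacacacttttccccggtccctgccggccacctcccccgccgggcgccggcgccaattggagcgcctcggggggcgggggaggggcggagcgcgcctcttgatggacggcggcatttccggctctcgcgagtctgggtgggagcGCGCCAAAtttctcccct
UHRF1 (chr19:4909251-4909500, plus strand): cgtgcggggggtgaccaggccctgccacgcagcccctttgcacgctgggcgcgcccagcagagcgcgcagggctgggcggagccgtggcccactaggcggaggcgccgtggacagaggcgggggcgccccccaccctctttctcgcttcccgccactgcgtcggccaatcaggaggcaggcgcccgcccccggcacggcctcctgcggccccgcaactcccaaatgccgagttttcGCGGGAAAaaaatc
RRM2 (chr2:10122489-10122738, plus strand): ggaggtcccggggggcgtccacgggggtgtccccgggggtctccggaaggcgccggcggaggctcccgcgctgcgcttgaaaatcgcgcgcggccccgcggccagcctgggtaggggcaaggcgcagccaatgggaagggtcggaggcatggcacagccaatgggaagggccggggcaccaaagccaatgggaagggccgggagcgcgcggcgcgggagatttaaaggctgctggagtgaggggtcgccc

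In the DMSO libraries the members spanned a wide range of levels. Per kilobase of annotated exon, 3 ring subunits were among the highest in each line, with MCM7 at 130, 110 and 102 CPM per kb in MOLM-13, MV-4-11 and THP-1, MCM4 at 109, 74.7 and 99.5, and MCM3 at 104, 122 and 181. PCNA, the sliding clamp, stood at 149, 97.1 and 51.0 CPM per kb in the same order of lines. It was thus among the highest in MOLM-13 and MV-4-11 but not in THP-1, which had the lowest level of it. GINS3 was the lowest member in each line at 4.97, 5.15 and 5.59 CPM per kb. Exons of TYMS overlap those of the antisense gene ENOSF1 over 39.2% of their length, and whether the counting used strand is not given in the sources used here, so the TYMS values are uncertain.

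Summed over the 39 genes, the DMSO libraries held 6004 and 6074 CPM in MOLM-13, 5553 and 5555 CPM in MV-4-11, and 6395 and 6384 CPM in THP-1. After 24 h of BRM014 the sum was 5722 and 5839 CPM in MOLM-13 and 5322 and 5564 CPM in MV-4-11, which is 95.7% and 98.0% of the mean with DMSO. In THP-1 it was already at 4015 and 4078 CPM, 63.3% of DMSO. After 72 h it stood at 2149 and 2229 CPM in MOLM-13 (36.2% of DMSO), 2947 and 2782 CPM in MV-4-11 (51.6%), and 2803 and 2920 CPM in THP-1 (44.8%). PMA left 4358 and 4732 CPM (71.1%) and DB2313 3042 and 3172 CPM (48.6%). The summed level was thus lowest in MOLM-13 at 72 h. In no 72 h library did it reach that of a 24 h or DMSO library of its line. These sums do not use TMM scaling, which the tests below do. Its factors in MOLM-13 were 0.906 and 0.886 with DMSO and 0.975 and 0.981 at 24 h. The fall at 24 h in that line is therefore smaller in these sums than with TMM.

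**Figure D1:**
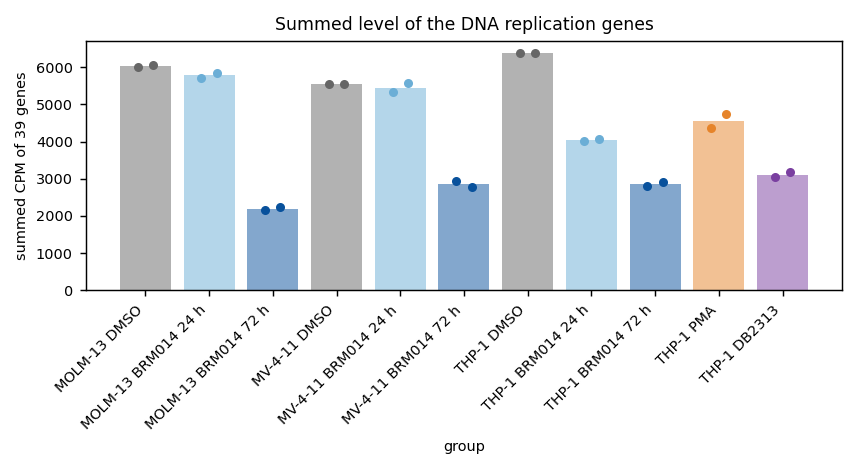
Summed CPM of the 39 DNA replication genes, by group. Bars are means of 2 libraries, without TMM scaling, and points are the libraries. Only the THP-1 bar lies well below DMSO at 24 h (63.3%), and at 72 h the bars stand at 36.2%, 51.6% and 44.8% of DMSO in MOLM-13, MV-4-11 and THP-1.

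Each treatment was set against DMSO of its line by edgeR's quasi-likelihood test over 16794 genes, and a gene was called at a Benjamini-Hochberg adjusted p under 0.05. In MOLM-13 at 24 h, 20 of the 39 fell and 3 rose, where 23.5% of all genes tested fell and 22.7% rose, and the median log2 change of the members was -0.22. The largest falls were in POLD2, the second subunit of polymerase delta (log2 -1.52, SE 0.138, adjusted p = 1.54e-08), PRIM1, the catalytic subunit of primase (-1.002, SE 0.106, adjusted p = 1.31e-07), and RFC3 of the clamp loader (-0.97, SE 0.097, adjusted p = 6.6e-08). The rises were led by RRM2, the small subunit of ribonucleotide reductase (0.63, SE 0.072, adjusted p = 3.5e-07), and UHRF1, which carries DNA methylation over to the new strand (0.46, SE 0.069, adjusted p = 1.35e-05). Of these 23 calls, 15 held under each alternative tried, among them the 5 genes named here. With library size in place of TMM scaling, 14 fell and 8 rose, and among all called genes the share that fell went from 50.9% to 40.7%.

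In MOLM-13 at 72 h all 39 fell, where 29.4% of all genes fell and 30.3% rose, with a median of -1.44 and a range from -2.98 to -0.28. POLD2 fell by 7.86-fold (log2 -2.98, SE 0.148, adjusted p = 5.23e-13), CDC6, which loads the MCM ring, by 6.41-fold (-2.68, SE 0.128, adjusted p = 2.68e-13), and CDT1, its partner in loading, by 5.66-fold (-2.5, SE 0.099, adjusted p = 1.73e-14). RPA2, the middle subunit of the single-strand binding protein RPA, changed least (-0.28, SE 0.073, adjusted p = 0.00281), and with library size alone it was not called (-0.08, adjusted p = 0.342). That scaling moved the median of all genes from 0 to 0.16.

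In MV-4-11 at 24 h, 14 members fell and 7 rose, where 22.4% of all genes fell and 23.6% rose, and the median of the members was -0.09. POLD2 (-0.96, SE 0.134, adjusted p = 5.12e-06), MCM2 (-0.72, SE 0.088, adjusted p = 9.88e-07) and ORC1, the largest subunit of the origin recognition complex (-0.66, SE 0.089, adjusted p = 3.59e-06), fell most. RRM2 rose 2.25-fold (1.17, SE 0.072, adjusted p = 5.12e-11). The next rise was in TK1, the salvage enzyme thymidine kinase (0.43, SE 0.137, adjusted p = 0.0142), and it was lost without BRM014 24 h replicate 2 (0.33, adjusted p = 0.139), without DMSO replicate 1 (adjusted p = 0.0629) and without DMSO replicate 2 (adjusted p = 0.0626). The count of 7 rises went to 3 without BRM014 24 h replicate 2, to 3 without DMSO replicate 1 and to 4 without DMSO replicate 2, and 2 of the 7, RRM2 and MCM10, held under each alternative.

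In MV-4-11 at 72 h, 38 fell and 1 rose, where 26.1% and 28.4% of all genes did, with a median of -1.06. ORC1 (-1.96, SE 0.095, adjusted p = 6.2e-13), POLD2 (-1.78, SE 0.138, adjusted p = 8.44e-10) and UHRF1 (-1.76, SE 0.072, adjusted p = 4.25e-14) fell most. The member that rose was RRM2 (0.82, SE 0.072, adjusted p = 4.94e-09).

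In THP-1 at 24 h, 33 of the 39 fell and none rose, where 24.1% of all genes fell and 25.9% rose, and the median was -0.63. MCM3 (-1.38, SE 0.062, adjusted p = 4.82e-13), MCM6 (-1.23, SE 0.071, adjusted p = 2e-11) and ORC1 (-1.22, SE 0.089, adjusted p = 6.05e-10) fell most. The 6 without a call were GINS3, POLD1, POLE, RRM2, TYMS and TK1, 3 of which supply nucleotides. In THP-1 at 72 h all 39 fell, where 28.0% of all genes fell and 30.9% rose, with a median of -1.11. ORC1 fell 4.29-fold (-2.1, SE 0.093, adjusted p = 1.88e-13), MCM3 3.52-fold (-1.82, SE 0.063, adjusted p = 4.61e-15) and MCM2 3.23-fold (-1.69, SE 0.09, adjusted p = 3.06e-12). The smallest fall was in POLD1, the catalytic subunit of polymerase delta (-0.44, SE 0.116, adjusted p = 0.00306), and it was not called without BRM014 72 h replicate 1 (-0.34, adjusted p = 0.0542).

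Under PMA 27 members fell and none rose, where 17.1% of all genes fell and 18.9% rose, with a median of -0.33. UHRF1 (-0.901, SE 0.07, adjusted p = 2.52e-09), CDT1 (-0.81, SE 0.095, adjusted p = 9.49e-07) and POLD2 (-0.79, SE 0.134, adjusted p = 8.63e-05) fell most. Without PMA replicate 1 the test called 21 members as lower, with ORC1, CDC6, MCM5, GINS1, GINS3 and RFC4 no longer called, and without PMA replicate 2 it called 33. The log2 change of POLD2 was -0.51 without PMA replicate 1 (adjusted p = 0.000376) and -1.15 without PMA replicate 2 (adjusted p = 1.13e-08), and those of UHRF1 were -0.83 and -0.97 and of CDT1 -0.69 and -0.94. The myeloid list stood at 10910 and 11050 CPM under PMA against 3253 and 3080 CPM with DMSO, and its part in these falls was not tested. Most of that sum in a PMA library was LYZ, at up to 8432 CPM, so it does not stand for the list as a whole. With library size alone the test called 34 members as lower, and among all called genes the share that fell went from 47.5% to 59.0%.

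Under DB2313, 36 members fell and 1 rose, where 29.5% of all genes fell and 35.9% rose, with a median of -1.08 beside 0.14 over all genes tested. The red cell and megakaryocyte list stood at 140.3 and 152 CPM in these libraries, from ITGA2B, against 1.25 and 1.04 CPM with DMSO, and its part in the falls was not tested. MCM3 fell 4.98-fold (-2.32, SE 0.064, adjusted p = 2.87e-16), POLA1, the catalytic subunit of polymerase alpha, 4.09-fold (-2.03, SE 0.119, adjusted p = 1.08e-11) and MCM4 3.92-fold (-1.97, SE 0.07, adjusted p = 8.33e-15). POLE, the catalytic subunit of polymerase epsilon, was the member that rose (0.48, SE 0.085, adjusted p = 5.13e-05). POLD1 (-0.06, SE 0.115, adjusted p = 0.692) and TK1 (-0.25, SE 0.134, adjusted p = 0.103) were not called. The comparisons within a line share DMSO libraries, so their values are given side by side and not set against each other as repeats.

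**Figure D2:**
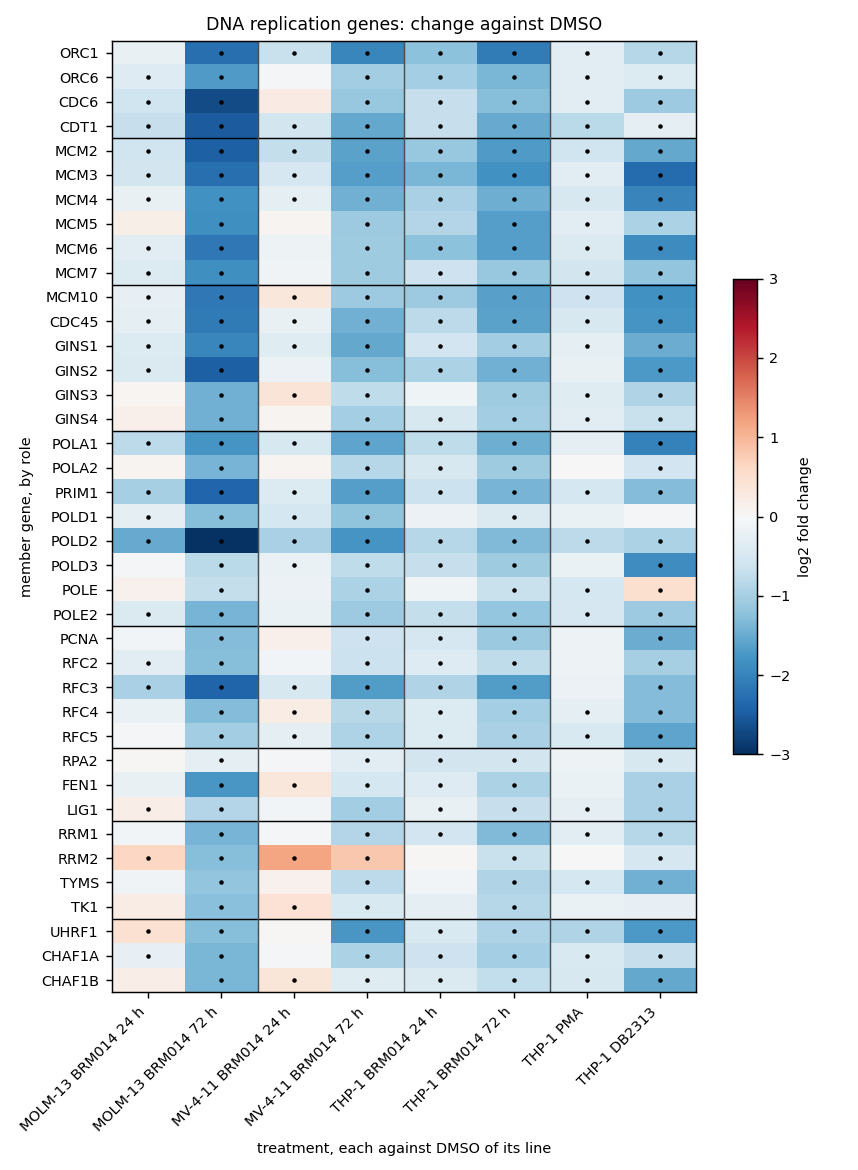
Log2 fold change of each of the 39 members (rows, grouped by role between the horizontal lines) in 8 treatments (columns), each against DMSO of its line. Blue is lower, red is higher, and a dot marks an adjusted p under 0.05. At 72 h of BRM014 every cell is blue and dotted except RRM2 in MV-4-11, which is red at 0.82, and under DB2313 POLE is red at 0.48.

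The 4 licensing genes fell in all lines at 72 h, with medians of -2.38, -1.34 and -1.44 in MOLM-13, MV-4-11 and THP-1. Of all genes tested, 29.4%, 26.1% and 28.0% fell there. CDC6 stood at 84.4 and 79.7 CPM in MOLM-13 with DMSO, 60.8 and 57.7 CPM at 24 h and 11.8 and 17.6 CPM at 72 h. In MV-4-11 it was at 41.3 and 47.7 CPM with DMSO, 54.2 and 56.8 CPM at 24 h and 21.6 and 20.3 CPM at 72 h, so the 24 h libraries lay above DMSO there, without a call (log2 0.25, SE 0.116, adjusted p = 0.0916), and the 72 h libraries below it (-1.15, SE 0.124). In THP-1 it went from 94.1 and 97.9 CPM with DMSO to 63.98 and 59.3 CPM at 24 h (-0.69, SE 0.113) and 44 and 40.3 CPM at 72 h (-1.27, SE 0.117), with 70.9 and 72.4 CPM under PMA and 46.3 and 49.1 CPM under DB2313 (-1.08, SE 0.115). These groups did not overlap with DMSO in any line. The PMA value (-0.34, SE 0.113, adjusted p = 0.0242) lost its call without PMA replicate 1 (-0.30, adjusted p = 0.0774), without DMSO replicate 1 (-0.37, adjusted p = 0.0575) or without DMSO replicate 2 (-0.30, adjusted p = 0.137).

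ORC1, which binds ATP in the origin recognition complex, had the lowest mean log2 change of the members over the 3 lines at 72 h (-2.11). It stood at 72.7 and 72.3 CPM with DMSO, 64.7 and 71.9 CPM at 24 h and 17.4 and 17.03 CPM at 72 h in MOLM-13. The same groups held 77.9 and 78.95, 51.2 and 53.2 and 22.6 and 19.4 CPM in MV-4-11. In THP-1 they held 119 and 119, 51.5 and 53.7 and 30.5 and 28.3 CPM, and DB2313 left 69.8 and 68.96 CPM. At 24 h ORC1 was called in MV-4-11 and THP-1, and in MOLM-13 its 24 h libraries lay just under those with DMSO without a call (-0.21, SE 0.089, adjusted p = 0.0583). CDT1 fell in MOLM-13, MV-4-11 and THP-1 at 24 h by 0.68, 0.56 and 0.69 on the log2 scale and at 72 h by 2.5, 1.53 and 1.51. ORC6, the smallest ORC subunit, was at -1.702, -1.04 and -1.37 at 72 h. Its mean over 2 libraries went from 44.6 to 15.6 CPM in MOLM-13, from 49.8 to 25.2 CPM in MV-4-11 and from 62.4 to 25.6 CPM in THP-1.

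All 6 subunits of the MCM ring fell at 72 h in each line and under PMA and DB2313, and in THP-1 at 24 h. Of all genes tested, 29.4%, 26.1% and 28.0% fell at 72 h in MOLM-13, MV-4-11 and THP-1. The share was 24.1% in THP-1 at 24 h, 17.1% under PMA and 29.5% under DB2313. The MCM5 call under PMA (-0.32, SE 0.095) was lost without PMA replicate 1 (-0.14, adjusted p = 0.201) and without THP-1 DMSO replicate 2 (-0.29, adjusted p = 0.0851). The summed level of the 6 subunits in MOLM-13 was 2566 and 2554 CPM with DMSO. It went to 2243 and 2255 CPM at 24 h and 719 and 759 CPM at 72 h. In MV-4-11 it went from 2279 and 2303 CPM to 1941 and 2019 CPM and then 978 and 927 CPM. In THP-1 it went from 2871 and 2861 CPM to 1435 and 1448 CPM at 24 h, 50.3% of DMSO, and to 1007 and 1063 CPM at 72 h, and stood at 924 and 968 CPM under DB2313. Both DB2313 libraries thus lay just below both 72 h BRM014 libraries, while PMA left 1888 and 2069 CPM.

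MCM2 fell in every comparison with DMSO. In MOLM-13 its levels were 292 and 308 CPM with DMSO, 204 and 226 CPM at 24 h (log2 -0.61, SE 0.088, adjusted p = 8.84e-06) and 62.4 and 63.1 CPM at 72 h (-2.45, SE 0.094). In MV-4-11 they were 339 and 340 CPM, 214 and 220 CPM and 119 and 113 CPM (-1.61, SE 0.09). In THP-1 they were 396 and 425 CPM, 196 and 192 CPM (-1.13, SE 0.088) and 131 and 139 CPM, with 231 and 279 CPM under PMA (-0.599, SE 0.087, adjusted p = 1.62e-05) and 139 and 159 CPM under DB2313 (-1.54, SE 0.089). In all lines the 3 BRM014 and DMSO groups were in the order DMSO, 24 h, 72 h from high to low with no overlap. MCM5 had no call at 24 h in MOLM-13 (0.18, SE 0.095) or MV-4-11 (0.09, SE 0.095), and fell in THP-1 (-0.89, SE 0.096). At 72 h MCM5 was down in all 3 lines (log2 -1.85, -1.09 and -1.65).

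The other ring subunits shared this course between DMSO and 72 h, given as means of 2 libraries. MCM3 went from 380 to 90.4 CPM in MOLM-13, from 447 to 148 CPM in MV-4-11 and from 662 to 199 CPM in THP-1. MCM4 went from 763 to 245 CPM in MOLM-13, from 521 to 200 CPM in MV-4-11 and from 694 to 265 CPM in THP-1. MCM6 went from 275 to 71.6 CPM in MOLM-13, from 274 to 136 CPM in MV-4-11 and from 343 to 116 CPM in THP-1. MCM6 kept the largest share of its control level in MV-4-11, where its log2 change was -1.07, against -2.13 in MOLM-13 and -1.64 in THP-1. MCM7 went from 572 to 183 CPM in MOLM-13, from 482 to 241 CPM in MV-4-11 and from 447 to 215 CPM in THP-1.

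Of the 6 genes of helicase activation all fell at 72 h in each line, with medians of -2.04, -1.18 and -1.25 in MOLM-13, MV-4-11 and THP-1. The shares of all genes that fell there were 29.4%, 26.1% and 28.0%. MCM10, which helps the helicase open the origin, rose in MV-4-11 at 24 h (0.35, SE 0.086, adjusted p = 0.00221) from 53.97 and 54.1 CPM to 70.97 and 73.7 CPM, with no overlap, and then fell to 27.4 and 25.5 CPM. In THP-1 it fell at 24 h from 47.1 and 44.9 CPM to 22.8 and 21.8 CPM (-1.09, SE 0.091, adjusted p = 5.05e-09). CDC45, which joins the ring to GINS, was at -2.13, -1.43 and -1.604 at 72 h in MOLM-13, MV-4-11 and THP-1. The GINS subunits were uneven in MOLM-13 at 72 h: GINS1 and GINS2 changed by -1.96 and -2.44, and GINS3 and GINS4 by -1.44 and -1.44.

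The mean level of CDC45 between DMSO and 72 h went from 71.3 to 18.6 CPM in MOLM-13, from 78.5 to 30.3 CPM in MV-4-11 and from 78.6 to 27.4 CPM in THP-1. GINS1 went from 68.3 to 20.03 CPM in MOLM-13, from 48.1 to 17.4 CPM in MV-4-11 and from 81.1 to 41.8 CPM in THP-1. GINS2 went from 47.99 to 10.1 CPM in MOLM-13, from 37.2 to 16.1 CPM in MV-4-11 and from 39.5 to 15.5 CPM in THP-1. The 4 GINS subunits form 1 complex, and each was lower at 72 h in every line. GINS3 went from 25.4 to 10.7 CPM in MOLM-13, from 26.3 to 16.2 CPM in MV-4-11 and from 28.6 to 14.4 CPM in THP-1. GINS4 went from 85.7 to 36.2 CPM in MOLM-13, from 72.4 to 37.2 CPM in MV-4-11 and from 95.8 to 48.9 CPM in THP-1.

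The 8 polymerase and primase genes all fell at 72 h in each line, with medians of -1.39, -1.15 and -1.11 in MOLM-13, MV-4-11 and THP-1. Over all genes tested, 29.4%, 26.1% and 28.0% fell there. POLD2 went in MOLM-13 from 178 and 202 CPM with DMSO to 68.5 and 76.7 CPM at 24 h and 27.5 and 27.7 CPM at 72 h. In MV-4-11 it went from 206 and 192 CPM to 102 and 112 CPM and 61.4 and 59.5 CPM, and in THP-1 from 194 and 194 CPM to 111 and 110 CPM and 75.8 and 88.5 CPM. The DMSO, 24 h and 72 h groups did not overlap within a line. Under PMA the POLD2 libraries were at 84.2 and 126 CPM, on either side of the 24 h level, and under DB2313 at 110 and 101 CPM. Its promoter window held none of the E2F words, but the annotated gene start lies upstream of that window. POLD3, an accessory subunit of the same enzyme, was at -0.804 at 72 h in MOLM-13, where POLD2 was at -2.98. Catalytic POLD1 stood at -1.29, -1.196 and -0.44 in the 3 lines at 72 h, with 158 and 172 CPM in THP-1 with DMSO and 121 and 139 CPM at 72 h.

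POLA1 fell in each line at both times. Its levels in MOLM-13 were 65.7 and 60.02 CPM with DMSO, 39.5 and 40.3 CPM at 24 h (-0.78, SE 0.114) and 17.99 and 24 CPM at 72 h (-1.78, SE 0.119). In MV-4-11 they were 63.03 and 60.99 CPM, 46.8 and 46.5 CPM (-0.48, SE 0.112) and 23.8 and 19.6 CPM (-1.58, SE 0.118). In THP-1 they were 74.1 and 75.4 CPM, 45.4 and 45.4 CPM (-0.77, SE 0.112) and 27.5 and 29.98 CPM (-1.47, SE 0.116), and 21.04 and 17.5 CPM under DB2313. PMA left 59.3 and 58.1 CPM, with no call (-0.26, SE 0.111, adjusted p = 0.0705). POLE went in another direction than POLA1 under DB2313. It was at 221 and 202 CPM in THP-1 with DMSO, 197 and 203 CPM at 24 h, 129 and 151 CPM at 72 h, 142 and 133 CPM under PMA and 289 and 332 CPM under DB2313, so both DB2313 libraries lay above every other THP-1 library. POLE2, the second subunit of the same polymerase, fell under DB2313 (-1.08, SE 0.117, adjusted p = 8.72e-08).

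PRIM1 went from 63.1 to 13.8 CPM in MOLM-13, from 55.5 to 18.4 CPM in MV-4-11 and from 64.2 to 25.9 CPM in THP-1, as means of 2 libraries. POLA2, the accessory subunit of polymerase alpha, went from 51.2 to 22.3 CPM in MOLM-13, from 49.7 to 28.8 CPM in MV-4-11 and from 76.5 to 38.6 CPM in THP-1. POLD3 went from 49.8 to 32.5 CPM in MOLM-13, from 58.3 to 35.6 CPM in MV-4-11 and from 99.3 to 50 CPM in THP-1. The order of the lines thus differed by gene, since the log2 changes at 72 h in MOLM-13, MV-4-11 and THP-1 were -2.38, -1.65 and -1.397 for PRIM1 and -0.804, -0.77 and -1.08 for POLD3. POLE2 went from 23.9 to 10.5 CPM in MOLM-13, from 22.9 to 11.1 CPM in MV-4-11 and from 24.4 to 11.6 CPM in THP-1.

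Of the clamp and its loader, all 5 genes fell at 72 h in each line, where 29.4%, 26.1% and 28.0% of all genes fell in MOLM-13, MV-4-11 and THP-1. PCNA was not called at 24 h in MOLM-13 (-0.08, SE 0.083, adjusted p = 0.491) or MV-4-11 (0.14, SE 0.083, adjusted p = 0.175). Its levels in MOLM-13 were 231 and 208 CPM with DMSO, 236 and 218 CPM at 24 h and 99.9 and 103 CPM at 72 h (-1.304, SE 0.085). In MV-4-11 they were 146 and 139 CPM, 162 and 169 CPM and 98.6 and 93.4 CPM (-0.63, SE 0.085). In THP-1 they were 71.7 and 78.3 CPM, 54.7 and 54.6 CPM (-0.504, SE 0.088, adjusted p = 7.04e-05) and 39.8 and 34.03 CPM (-1.11, SE 0.09), with 62.04 and 65.9 CPM under PMA (-0.15, SE 0.087, no call) and 29.4 and 26.6 CPM under DB2313 (-1.497, SE 0.092). In THP-1 the lowest PCNA libraries were those with DB2313. Within the loader RFC3 had the largest fall of the 4 subunits at 72 h in each line, 5.29-fold, 3.18-fold and 3.21-fold in MOLM-13, MV-4-11 and THP-1.

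As means of 2 libraries, RFC3 went from 112 to 24.2 CPM in MOLM-13, from 67.4 to 22.2 CPM in MV-4-11 and from 83.8 to 27.7 CPM in THP-1. RFC2 went from 62.5 to 29.5 CPM in MOLM-13, from 70.2 to 46.5 CPM in MV-4-11 and from 61.2 to 38.4 CPM in THP-1. RFC4 went from 56.3 to 26.1 CPM in MOLM-13, from 66.1 to 38.8 CPM in MV-4-11 and from 80.6 to 42.5 CPM in THP-1. RFC5 went from 52.5 to 29.1 CPM in MOLM-13, from 59.2 to 32.6 CPM in MV-4-11 and from 66.9 to 35.97 CPM in THP-1. All 4 are small subunits that form the loader with the large subunit RFC1, and the 3 besides RFC3 had log2 changes at 72 h between -1.3 and -0.65.

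The genes of single-strand binding and fragment joining had the smallest median changes of the 8 role groups at 72 h, -0.88, -0.52 and -0.69 in MOLM-13, MV-4-11 and THP-1. RPA2 was at 103 and 110 CPM in MOLM-13 with DMSO and 99.8 and 101 CPM at 72 h. In MV-4-11 it was at 90.7 and 91.8 CPM and 77.4 and 76.1 CPM, and in THP-1 at 67.1 and 65.9 CPM and 48.2 and 47.8 CPM. Its log2 changes at 72 h were -0.28, -0.31 and -0.56. FEN1, the nuclease that trims flaps between Okazaki fragments, fell in MOLM-13 at 72 h (-1.75, SE 0.104) from 128 and 126 CPM to 39.9 and 46.4 CPM and less in MV-4-11 (-0.52, SE 0.1) from 114 and 105 CPM to 82.3 and 77.2 CPM. LIG1, which seals the fragments, was at -0.88, -1.03 and -0.69, and its mean went from 145 to 90.1 CPM in MOLM-13, from 139 to 70.6 CPM in MV-4-11 and from 103 to 67.6 CPM in THP-1.

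Among the 4 genes of nucleotide supply, RRM2 went the other way from the rest of the members at 72 h in MV-4-11. In MV-4-11 its levels were 231 and 233 CPM with DMSO, 531 and 570 CPM at 24 h and 449 and 404 CPM at 72 h. In MOLM-13 they were 244 and 250 CPM, 417 and 420 CPM and 111 and 123 CPM (-1.27, SE 0.073, adjusted p = 5.56e-12). RRM2 was thus above DMSO at 24 h in these 2 lines, and at 72 h it was above DMSO in MV-4-11 and below it in MOLM-13. In THP-1 it was at 182 and 192 CPM with DMSO, 198 and 197 CPM at 24 h (0.03, SE 0.072, no call) and 128 and 123 CPM at 72 h (-0.66, SE 0.073), 186 and 167 CPM under PMA (-0.00, SE 0.072, no call) and 131 and 146 CPM under DB2313 (-0.51, SE 0.073). RRM1, the large subunit of the same enzyme, had no call at 24 h in MOLM-13 (-0.09, SE 0.072) or MV-4-11 (-0.06, SE 0.071) and fell at 72 h in all 3 lines (-1.401, -0.88 and -1.34). In MV-4-11 at 72 h RRM1 was at 102 and 97.1 CPM against 174 and 176 CPM with DMSO, below it where RRM2 was above.

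TYMS, thymidylate synthase, had no call at 24 h in MOLM-13 (-0.1, SE 0.131), MV-4-11 (0.14, SE 0.122) or THP-1 (-0.08, SE 0.121). It fell at 72 h in MOLM-13 from 28.6 and 34.4 CPM to 15.6 and 15.9 CPM (-1.19, SE 0.137) and in MV-4-11 from 54.6 and 55.1 CPM to 30.6 and 35.5 CPM (-0.79, SE 0.126). In THP-1 it fell from 70.5 and 62.7 CPM to 35.4 and 40.1 CPM (-0.904, SE 0.125), with 40.6 and 45.7 CPM under PMA (-0.54, SE 0.123, adjusted p = 0.00178) and 28.2 and 23.6 CPM under DB2313 (-1.44, SE 0.128). TK1, the other thymidine nucleotide enzyme of the set, went from 97.5 to 46.7 CPM in MOLM-13, from 70.8 to 53.5 CPM in MV-4-11 and from 155 to 91.5 CPM in THP-1, as means of 2 libraries, and its call in MV-4-11 (-0.47, SE 0.14, adjusted p = 0.00810) was lost without BRM014 72 h replicate 2 (-0.38, adjusted p = 0.0912). TYMS was thus called at 72 h and not at 24 h in each line, with the exon overlap with ENOSF1 as a limit on its values.

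Among the genes of chromatin copying, UHRF1 was at 287 and 289 CPM in MOLM-13 with DMSO, 427 and 436 CPM at 24 h and 138 and 134 CPM at 72 h (-1.28, SE 0.071). In MV-4-11 it was at 316 and 309 CPM, 329 and 347 CPM (0.04, SE 0.069, no call) and 101 and 91.95 CPM. In THP-1 it was at 297 and 294 CPM, 218 and 229 CPM (-0.45, SE 0.069, adjusted p = 1.65e-05), 157 and 173 CPM (-0.92, SE 0.07), 145 and 153 CPM under PMA and 89.02 and 99.5 CPM under DB2313 (-1.72, SE 0.072). In MOLM-13 it rose at 24 h and fell at 72 h with no overlap between the 3 groups. CHAF1A and CHAF1B, subunits of the chromatin assembly factor that places histones on new DNA, were at -1.37 and -1.38 in MOLM-13 at 72 h. The mean of CHAF1A went from 139 to 61.7 CPM in MOLM-13, from 85.7 to 46.5 CPM in MV-4-11 and from 134 to 70.02 CPM in THP-1, and that of CHAF1B from 27.6 to 12.1 CPM in MOLM-13, from 33.8 to 27.6 CPM in MV-4-11 and from 46.5 to 29.9 CPM in THP-1. In MV-4-11 they were at -0.94 and -0.36, and the CHAF1B call there was lost without BRM014 72 h replicate 2 (-0.33, adjusted p = 0.0740) and without DMSO replicate 2 (-0.29, adjusted p = 0.0959).

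**Figure D3:**
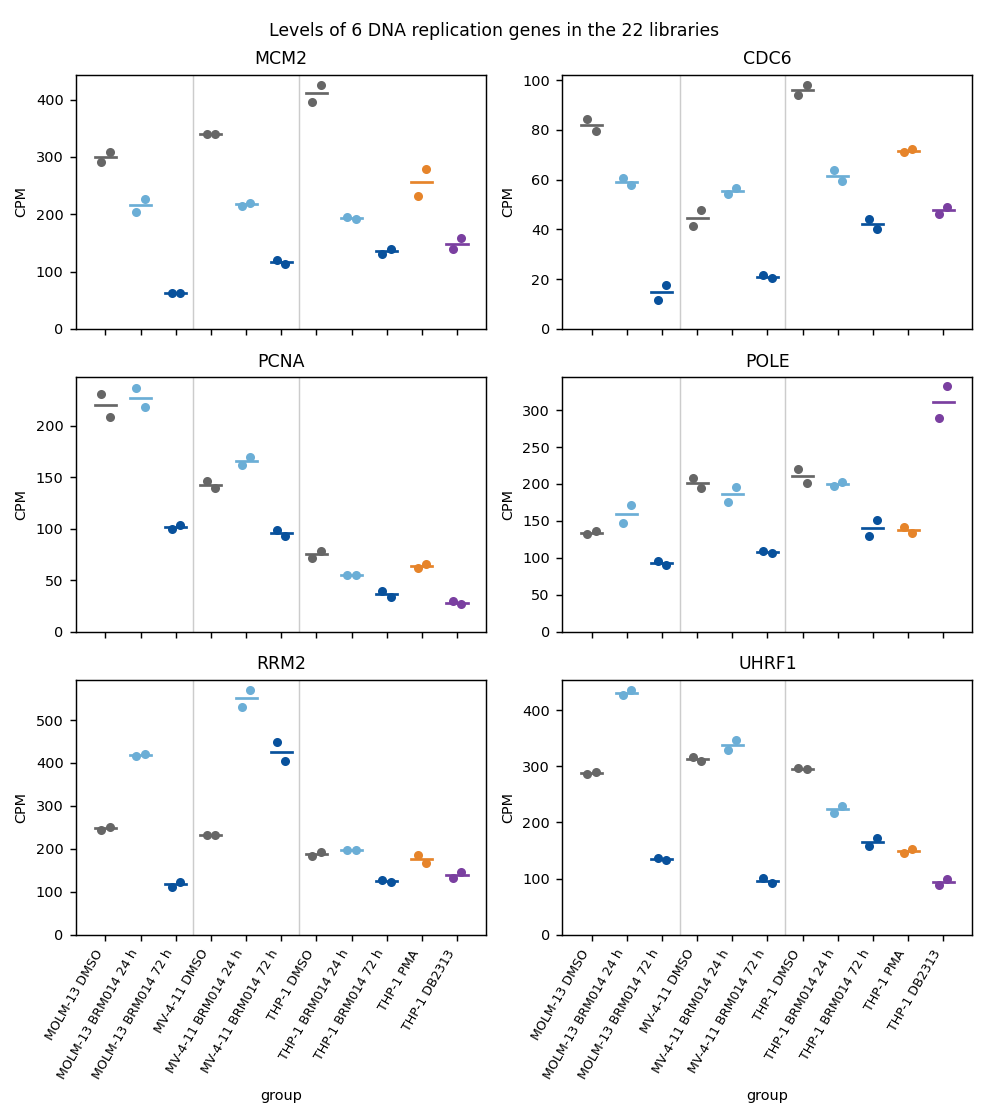
Levels of 6 members in each of the 22 libraries, in CPM, with points for libraries and a line at the mean of each group of 2. MCM2 steps down from DMSO to 24 h to 72 h in each line, RRM2 is above DMSO at 24 h in MOLM-13 and at both times in MV-4-11, and POLE is highest under DB2313 at 289 and 332 CPM.

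The 72 h libraries were also set directly against those of 24 h, a comparison that does not use the DMSO libraries. With no DMSO library labelled for either time, hours of BRM014 and hours in culture cannot be told apart in it. In MOLM-13 all 39 members were lower at 72 h (22.7% of all genes fell and 20.8% rose), with a median of -1.47. In MV-4-11 all 39 were lower (16.9% fell and 18.6% rose), with a median of -0.95. In THP-1, 37 were lower and none higher (16.5% fell and 16.2% rose), with a median of -0.55, and POLD1 (-0.26, SE 0.116) and RPA2 (0.01, SE 0.077) had no call. In MOLM-13 the largest drops were in CDC6 (-2.08, SE 0.127), ORC1 (-2.05, SE 0.097) and MCM5 (-2.03, SE 0.1), in MV-4-11 in UHRF1 (-1.8, SE 0.072), MCM10 (-1.44, SE 0.09) and CDC6 (-1.39, SE 0.123), and in THP-1 in GINS3 (-0.94, SE 0.132), ORC1 (-0.88, SE 0.093) and CDT1 (-0.83, SE 0.097). RRM2 was among the genes that fell between these times in MV-4-11 (-0.36, SE 0.071, adjusted p = 4.39e-04), although it stayed above DMSO. Between 24 h and 72 h MCM2 changed by -1.84, -0.89 and -0.56 in MOLM-13, MV-4-11 and THP-1, POLA1 by -0.995, -1.095 and -0.701, PCNA by -1.23, -0.78 and -0.604, and TYMS by -1.09, -0.92 and -0.82. RRM2 changed by -1.902 and -0.695 in MOLM-13 and THP-1, UHRF1 by -1.74 and -0.47, and CDC6 by -0.59 in THP-1.

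Whether the BRM014 effect differed between lines was tested with interaction terms. At 24 h the effect on 30 of the 39 differed among the 3 lines by an F test, where 43.5% of all genes did. The effect on 28 was lower in THP-1 than in MV-4-11 and on none higher (18.5% of all genes lower, 16.4% higher), and on 22 it was lower in THP-1 than in MOLM-13 and on 1 higher (13.4% lower, 13.2% higher). Between MV-4-11 and MOLM-13 fewer members differed, with 8 higher and 2 lower in MV-4-11 (11.8% higher, 10.3% lower). Both directions together, these 10 of 39 are near the share of all genes called. The effect on MCM10 was lower in THP-1 than in MV-4-11 by 1.44 (SE 0.126, adjusted p = 3.32e-08), on RRM2 by 1.14 (SE 0.101), on MCM6 by 1.08 (SE 0.099) and on CDC6 by 0.93 (SE 0.162). PCNA (-0.65, SE 0.121) and UHRF1 (-0.49, SE 0.097) were also lower in THP-1 than in MV-4-11. POLA1 (-0.28, SE 0.158, adjusted p = 0.182) and TYMS (-0.22, SE 0.172, adjusted p = 0.378) were not called. The POLD2 effect was the 1 that was less negative in THP-1 than in MOLM-13 (0.66, SE 0.19, adjusted p = 0.0140), and the call was lost without MOLM-13 BRM014 24 h replicate 1 (adjusted p = 0.0647) and without MOLM-13 DMSO replicate 2 (adjusted p = 0.0696).

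At 72 h the effect on 31 members differed among the lines, where 52.9% of all genes did. The effect on 28 was less negative in MV-4-11 than in MOLM-13 and on 1 more negative (20.8% of all genes higher, 15.0% lower). With library size alone, the share of all called genes that were lower in this comparison went from 41.8% to 53.4%. Between THP-1 and MOLM-13, 21 were higher in THP-1 and 1 lower (18.3% higher, 15.9% lower), and between THP-1 and MV-4-11, 9 were lower in THP-1 and 4 higher (19.9% lower, 16.5% higher). That last total of 13 went to 8 without MV-4-11 DMSO replicate 2. The RRM2 effect differed by 2.09 between MV-4-11 and MOLM-13 (SE 0.103, adjusted p = 4.17e-12), CDC6 by 1.53 (SE 0.176, adjusted p = 8.09e-07) and FEN1 by 1.23 (SE 0.143, adjusted p = 8.84e-07). UHRF1 fell more in MV-4-11 than in MOLM-13 (-0.48, SE 0.099, adjusted p = 6.52e-04) and more than in THP-1, whose effect was higher by 0.83 (SE 0.099, adjusted p = 1.28e-06). POLA1, by contrast, had no call between MV-4-11 and MOLM-13 (0.2, SE 0.166), THP-1 and MOLM-13 (0.31, SE 0.165) or THP-1 and MV-4-11 (0.11, SE 0.164). MCM2 was less negative than in MOLM-13 in MV-4-11 (0.84, SE 0.126) and THP-1 (0.76, SE 0.126), with no call between the latter (-0.08, SE 0.125).

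In THP-1 the 72 h BRM014 libraries were compared directly with the other treatments, which leaves out the shared DMSO libraries. Against PMA, 35 members were lower with BRM014 and none higher (29.8% of all genes fell and 30.4% rose), with a median of -0.75. ORC1 (-1.77, SE 0.093, adjusted p = 2.15e-12), RFC3 (-1.51, SE 0.103, adjusted p = 1.1e-10) and MCM3 (-1.49, SE 0.062, adjusted p = 5.93e-14) differed most. POLD1 (-0.25, SE 0.116), POLE (-0.15, SE 0.086), UHRF1 (-0.02, SE 0.07) and CHAF1B (-0.26, SE 0.111) had no call, though POLD1 was called without PMA replicate 1 (-0.47, adjusted p = 0.000368) and stood at 0.01 without PMA replicate 2. MCM2 (-1.09), CDC6 (-0.94), PCNA (-0.96), POLA1 (-1.202) and RRM2 (-0.66) were lower with BRM014. The TYMS difference (-0.37, SE 0.126, adjusted p = 0.0175) was not called without PMA replicate 2 (adjusted p = 0.141), without BRM014 72 h replicate 1 (adjusted p = 0.149) or with library size alone (adjusted p = 0.170). Without PMA replicate 1 the count of 35 was 36 and without PMA replicate 2 it was 33. The lists also differ in time, since PMA was given for 48 h with 24 h of rest and BRM014 for 72 h. With library size alone the median of all genes moved from 0.03 to 0.20 and the share of called genes that fell from 49.5% to 39.1%.

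Against DB2313, 13 members were lower with BRM014 and 14 higher, close to the background of 30.9% and 30.4%, and the median was -0.07. The licensing genes ORC1 (-1.25, SE 0.093, adjusted p = 4.2e-10), CDT1 (-1.22, SE 0.097, adjusted p = 1.17e-09) and ORC6 (-0.95, SE 0.09, adjusted p = 1.57e-08) were lower with BRM014, as was POLE (-1.16, SE 0.086, adjusted p = 4.42e-10). CHAF1B (0.802, SE 0.115, adjusted p = 4.89e-06), UHRF1 (0.799, SE 0.071, adjusted p = 6.18e-09) and POLD3 (0.78, SE 0.084, adjusted p = 1.05e-07) were higher. CDT1 was at 45.4 and 50.5 CPM with BRM014, 111 and 111 CPM with DB2313 and 126 and 132 CPM with DMSO, so the DB2313 libraries lay between the other groups. POLA1 (0.57, SE 0.122), PCNA (0.39, SE 0.094) and TYMS (0.53, SE 0.129) were higher with BRM014, while MCM2 (-0.15, SE 0.089), CDC6 (-0.19, SE 0.118) and RRM2 (-0.15, SE 0.073) had no call. Within the ring MCM3 (0.499, SE 0.062), MCM4 (0.5, SE 0.068) and MCM6 (0.25, SE 0.072) were higher with BRM014 and MCM5 lower (-0.69, SE 0.097). Whether the libraries of the 2 treatments were made together is not stated in the labels.

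**Figure D4:**
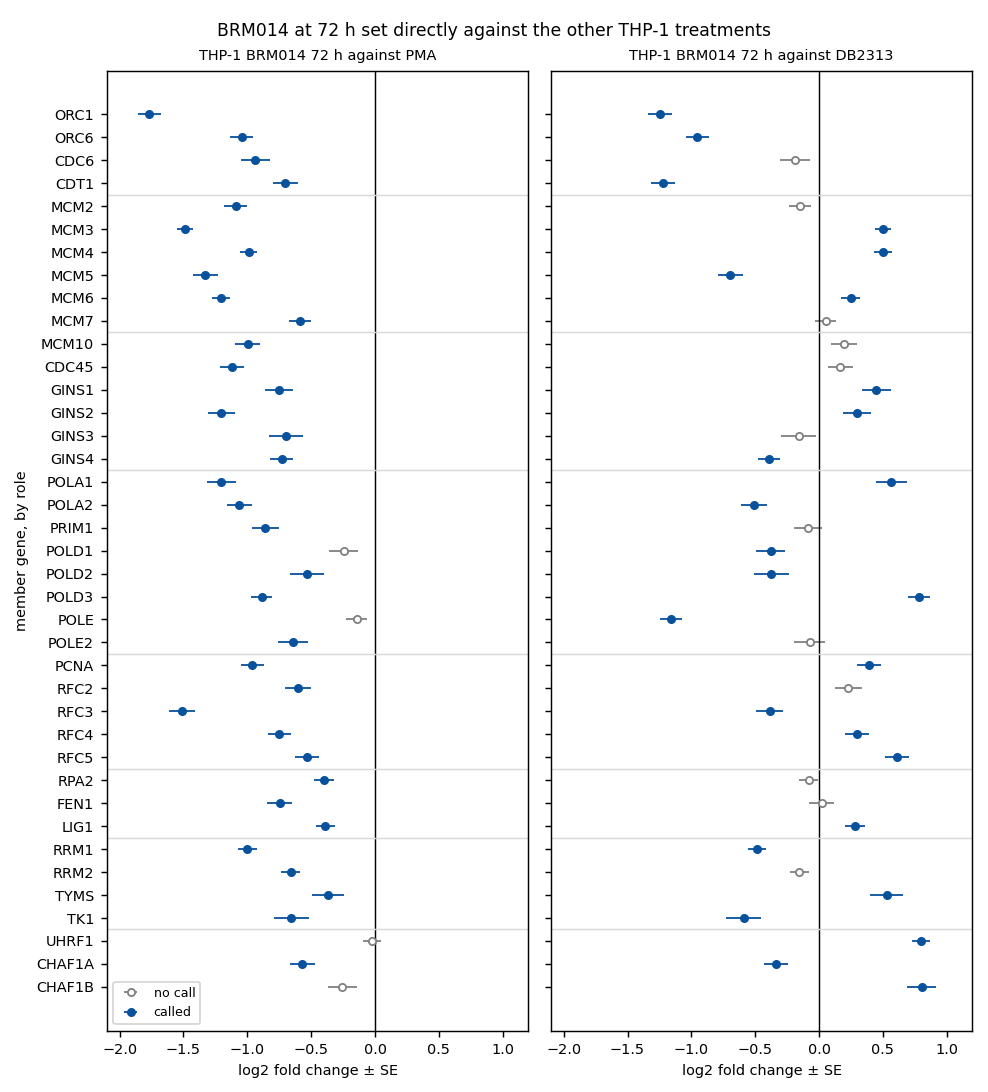
Log2 fold change between 72 h of BRM014 and PMA (left) or DB2313 (right) in THP-1, with 1 standard error to each side, for each of the 39 members by role. Filled points are called at an adjusted p under 0.05. Against PMA all points lie at or left of 0, and against DB2313 they spread to both sides, from ORC1 at -1.25 to CHAF1B at 0.80.

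The rest of the replication machinery was read from a list of 37 other genes, all tested. At 72 h, 32 fell and 1 rose in MOLM-13, 27 fell and 2 rose in MV-4-11, and 31 fell and 1 rose in THP-1, with medians of -0.83, -0.65 and -0.73. At 24 h, 13 fell and 5 rose in MOLM-13, 9 fell and 11 rose in MV-4-11, and 23 fell and 2 rose in THP-1. PMA gave 19 and 1 and DB2313 gave 31 and 3. Over all genes tested, 29.4% fell and 30.3% rose in MOLM-13 at 72 h, 26.1% fell and 28.4% rose in MV-4-11, and THP-1 had 28.0% and 30.9%. At 24 h 23.5% fell and 22.7% rose in MOLM-13, 22.4% fell and 23.6% rose in MV-4-11, and THP-1 had 24.1% and 25.9%, with 17.1% and 18.9% under PMA and 29.5% and 35.9% under DB2313. The 9 of 37 that fell in MV-4-11 at 24 h are near the share over all genes. PCLAF, a PCNA-binding factor, fell in MOLM-13 (-1.91, SE 0.07) and MV-4-11 (-1.53, SE 0.068) at 72 h, and TIPIN, of the fork protection complex, was the gene of this list that fell most in THP-1 (-1.52, SE 0.143). DSCC1, of an alternative clamp loader, fell most in MOLM-13 at 72 h (-2.03, SE 0.095) and under DB2313 (-1.96, SE 0.097). RRM2B, the p53-inducible counterpart of RRM2, rose in MV-4-11 at 24 h (0.698, SE 0.096) and was at 0.71 at 72 h.

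Among 20 E2F, RB and G1/S regulators, 6 fell and 8 rose in MOLM-13 at 24 h, 14 and 3 at 72 h, 2 and 11 in MV-4-11 at 24 h, 9 and 4 at 72 h, 9 and 3 in THP-1 at 24 h, and 12 and 4 at 72 h. PMA gave 9 and 3 and DB2313 gave 12 and 6. Over all genes tested, 23.5% fell and 22.7% rose in MOLM-13 at 24 h, and 29.4% and 30.3% at 72 h. MV-4-11 had 22.4% and 23.6% at 24 h and 26.1% and 28.4% at 72 h. THP-1 had 24.1% and 25.9% at 24 h, 28.0% and 30.9% at 72 h, 17.1% and 18.9% under PMA and 29.5% and 35.9% under DB2313. Several counts of the 20 are near these shares, such as the 6 that fell in MOLM-13 at 24 h and the 6 that rose under DB2313. Others lie below them, such as the 4 that rose in MV-4-11 at 72 h, and others above. CDKN1A, the p21 inhibitor of cyclin-dependent kinases, rose in MV-4-11 (2.23, SE 0.086 at 24 h, 2.83, SE 0.087 at 72 h), in THP-1 (3.397, SE 0.091 and 4.06, SE 0.093), and under PMA (2.51, SE 0.09) and DB2313 (3.68, SE 0.091), but was at 0.21 and -0.47 in MOLM-13. CCNE2, a cyclin E, rose in MV-4-11 at 24 h (1.92, SE 0.138) and 72 h (1.48, SE 0.139), and E2F2 rose at 24 h in MOLM-13 (1.19, SE 0.112) and MV-4-11 (1.204, SE 0.11). CDC25A, the phosphatase that activates CDK2, fell at 72 h in MOLM-13 (-2.59, SE 0.113), MV-4-11 (-1.504, SE 0.104) and THP-1 (-1.44, SE 0.102).

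Of 24 mitosis genes, 16 fell and 2 rose in MOLM-13 at 24 h, 3 fell and 11 rose in MV-4-11, and 1 fell and 3 rose in THP-1. At 72 h, 22, 23 and 24 fell in these lines and none rose. Under PMA 19 fell and none rose, and under DB2313 16 fell and 2 rose. In THP-1 at 24 h, 33 of the 39 replication genes were thus called lower beside 1 of 24 mitosis genes, whose median log2 change was 0.06, where 24.1% of all genes fell. The difference between these lists was not tested. At 24 h 23.5% of all genes fell and 22.7% rose in MOLM-13, 22.4% and 23.6% in MV-4-11, and 25.9% rose in THP-1. At 72 h 29.4%, 26.1% and 28.0% fell in MOLM-13, MV-4-11 and THP-1, and 30.3%, 28.4% and 30.9% rose. The shares that fell and rose were 17.1% and 18.9% under PMA and 29.5% and 35.9% under DB2313. Under DB2313, KIF20A, a motor of cell division, fell most of the mitosis genes (-2.93, SE 0.09).

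Members with and without an E2F word were described side by side, without a test, since both sets were read from the same libraries. At 72 h the 18 with a word had median log2 changes of -1.80 in MOLM-13, -1.12 in MV-4-11 and -1.15 in THP-1, and the 16 without one had -1.39, -0.93 and -1.02. Under DB2313 the medians were -1.36 and -0.97. The ranges of the 2 sets overlapped in each of these comparisons, with POLD2 (-2.98 in MOLM-13) and ORC1 (-1.96 in MV-4-11 and -2.1 in THP-1) as the lowest values at 72 h, all in the set without a word.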

How the data were processed

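Poly(A) RNA was sequenced from 22 libraries in 11 groups of 2. Read counts per gene symbol were deposited, 1 table per library. Per the submitters' processing notes, HISAT2 2.1.0, HTSeq, DESeq2 and the build hg38 were used, without role or order. The gene annotation and the strand setting of the counting are not given in the sources used here.

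The 5 summary lines of each table entered neither library sizes nor tests. Reads outside features were 12.03% to 19.17% of the total and ambiguous reads 3.04% to 3.82%. CPM was computed over the reads in genes. At these depths 3 counts equal 0.139 to 0.189 CPM. Counts were fitted in edgeR 4.0.16 (R 4.3.3) with the quasi-likelihood test, TMM scaling (factors 0.886 to 1.06), 1 coefficient per group over all 22 libraries and genes passing filterByExpr at a minimum count of 10. P-values were adjusted by Benjamini-Hochberg over all 16794 genes, and a call is an adjusted p under 0.05. The SE of a log2 change was taken as its size over the root of its F value. Fold changes use TMM and CPM levels do not, so they can differ. In MOLM-13 the factors were 0.906 and 0.886 with DMSO and 1.02 and 1.02 at 72 h. The fall of POLD2 there at 72 h was 6.88-fold by mean CPM, less than the fold change given with TMM. The script was tested on simulated counts with known changes. Alternatives were library size alone, RLE factors, DESeq2 1.42.0, other count filters, the groups of 1 line alone, a replicate block and leaving out each library.

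Exon lengths and positions are from GENCODE release 29, and promoters from RefSeq. The members, lists and tests were chosen with earlier results of these data known. In each comparison with DMSO the rule named the called members with the 3 largest falls and 2 largest rises, and MCM2, CDC6, PCNA, POLA1, RRM2, TYMS and UHRF1 throughout. Of the other lists it named the called genes with the largest change, at most 3 per list and comparison. Members and genes described beyond it were chosen after their values were seen.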

Additional observations from a re-analysis of the deposited data

Results flagged for a closer look

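The BRM014 effect differed between the 3 lines, by edgeR's F test of the interaction, for 30 of the 39 members at 24 h and for 31 at 72 h, where 43.5% and 52.9% of all genes tested differed. Among them were members called in opposite directions in different lines. At 24 h these were MCM10 (adjusted p = 8.67e-08), UHRF1 (adjusted p = 1.42e-06), FEN1 (adjusted p = 0.000508), CHAF1B (adjusted p = 0.000613), RFC4 (adjusted p = 0.000942) and LIG1 (adjusted p = 0.0112). At 72 h RRM2 was called higher in MV-4-11 and lower in MOLM-13 and THP-1 (adjusted p = 6.67e-12). Several of the opposite calls at 24 h rested on small changes. The LIG1 rise in MOLM-13 (log2 0.19) ended in 19 of 29 alternatives (adjusted p up to 0.401) and its fall in THP-1 (-0.22) in 4 (up to 0.168). The RFC4 rise in MV-4-11 (0.22) ended in 17 (up to 0.244). The rises in MV-4-11 of FEN1 (0.35, up to 0.0657) and CHAF1B (0.37, up to 0.172) each ended in 2, where 1 library was left out, and the CHAF1B fall in THP-1 (-0.43) ended without BRM014 24 h replicate 1 (0.0534). The MCM10 rise in MV-4-11 and fall in THP-1, and the UHRF1 rise in MOLM-13 and fall in THP-1, kept their calls in all 29, while the MCM10 fall in MOLM-13 (-0.25) ended in 4 (up to 0.308).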

How the results depend on the processing

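The 34 counts of members were taken again under 29 alternatives, 22 of which left out 1 library (32 of the counts with DESeq2). Of the values of a count under an alternative, 979 stayed within 1.5 times of the reported count and 5 did not. Counts of 0 that stayed 0 are among the 979. With library size alone, the members that rose in MOLM-13 at 24 h went from 3 to 8, and leaving out single libraries gave 2 to 4. The members that rose in MV-4-11 at 24 h were 7, and leaving out single libraries gave 3 to 8. The members called between THP-1 and MV-4-11 at 72 h were 13, and leaving out single libraries gave 8 to 16. In these cases the cause was not tested. Of 560 member calls, 76 ended in at least 1 alternative, and none was reversed. Same-numbered replicates did not pair in the same way over all groups. The correlations of their deviations ran from -0.518 to 0.511 over 55 pairs of groups, with a median of 0.003 and 13 above 0.1. Some groups thus shared a direction of difference between their replicates, and its source was not tested. A replicate block changed 6 of 34 counts, by at most 2 members. With 2 libraries per group, leaving 1 out assumes that the lone library varies like the other groups. Depth did not limit detection of the members, all of which passed the count filter.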
